A study of Mus musculus with 20 samples.

Results

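The livers of 5 Ercc1Δ/- mice on restricted food were set against the livers of 5 wild type mice on the control diet, 10 of the 20 arrays of the series. The arrays were chosen from the source names of the samples and not from any measured value. The comparison asks how far the liver of the treated progeroid animal stays from the untreated normal liver, and which genes are back at the normal level, which remain altered and which are newly altered. Total RNA of 1 mouse was hybridised to each Affymetrix mouse array. The restricted progeroid mice carried 1 null allele of Ercc1 and 1 Δ allele, which encodes a protein truncated at its C terminus, and were given restricted food. The control progeroid mice had the same alleles and the control diet, the restricted wild type mice had restricted food, and the control wild type mice had the control diet, with 5 animals in each group. All were 11 weeks old and had an F1 C57BL6J/FVB hybrid background, and the wild type mice were littermates of the progeroid mice. All were kept on AIN93G pellets. Restriction began at 7 weeks of age at 10% and stood at 30% from 9 weeks. For 30% restriction the protocol gives 1.6 g of food per day, with no genotype named, and 2.1 g per day for wild type mice, which ate 3.0 g per day when freely fed. The Ercc1 alleles are in every cell of the animal, and whole liver was used, so fewer cells of a type and less RNA per cell cannot be told apart.

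ERCC1 forms, with the XPF protein that Ercc4 encodes, an endonuclease that cuts DNA beside bulky lesions and at interstrand crosslinks. Mice with little ERCC1 accumulate DNA damage and show early liver, kidney and nerve disease, and food restriction is known to lengthen their life. The male mouse liver depends on pulses of growth hormone, which keep male-biased genes on and female-biased genes off through STAT5B; fasting and food restriction dampen this signal. Food intake also sets the phase of the clock in the liver.

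Most values below are RMA levels, the log2 signal of a probe set after background correction and after all arrays have been set to 1 distribution. A difference of 1 is a 2-fold change. Where values are given for each animal, the restricted progeroid animals follow in the order 362, 365, 366, 368 and 369, and the control wild type animals in the order 401, 402, 403, 404 and 405. A gene was called higher or lower at a Benjamini-Hochberg adjusted p under 0.05 in limma, over all 17097 genes measured.

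In restricted progeroid livers 2369 genes were higher and 1973 lower than in control wild type livers, together 25.4% of the 17097 genes (13.9% higher and 11.5% lower). A change of at least 1.5-fold was seen in 835 of the higher and 405 of the lower genes, at least 2-fold in 286 and 133, and at least 4-fold in 49 and 22. The 5 animals of one group did not overlap with the 5 of the other at 3226 genes, 18.9% of all. The control progeroid livers differed from the same control wild type livers at 1883 genes (11%), 1145 higher (6.7%) and 738 lower (4.32%), and the restricted wild type livers at 3842 genes (22.5%), 1696 higher (9.92%) and 2146 lower (12.6%). These 3 comparisons share the control wild type arrays. Against restricted wild type livers, the restricted progeroid livers had 2018 genes higher and 930 lower, 17.2% of all.

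The distance of an animal from the normal liver was taken as the root mean square of its log2 differences from the mean of the control wild type animals over all genes. It was 0.449, 0.407, 0.424, 0.389 and 0.404 in the restricted progeroid animals. The control progeroid animals lay nearer, at 0.348, 0.322, 0.328, 0.322 and 0.342, and the restricted wild type animals as far out, at 0.392, 0.434, 0.449, 0.412 and 0.422. Control wild type animals, each set against the mean of the other 4, had 0.224, 0.206, 0.201, 0.217 and 0.236. Every restricted progeroid animal was farther from the normal liver than every control progeroid animal, with group means of 0.415 ± 0.0229 and 0.332 ± 0.0122 (SD, n = 5 each; exact two-sided permutation p = 0.00794, the smallest this design allows, adjusted over 2 comparisons 0.0159). Restricted progeroid and restricted wild type animals (0.422 ± 0.0214) overlapped (exact permutation p = 0.595).

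**Figure D1:**
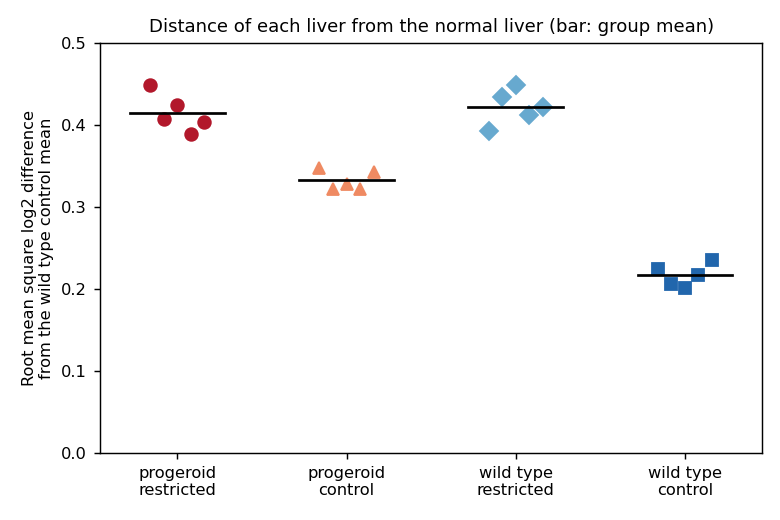
Distance of each animal from the mean of the control wild type livers (y axis, root mean square of log2 differences over 17097 genes) in the 4 groups, with a bar for the group mean. The restricted progeroid animals lie between 0.389 and 0.449, all above the control progeroid animals at 0.322 to 0.348, and overlap with the restricted wild type animals.

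No array stood apart: arrays correlated between 0.979 and 0.997 across genes. The difference between the 3' and 5' control probe sets of Gapdh, a sign of RNA integrity, was 0.807 ± 0.242 in restricted progeroid and 0.656 ± 0.0606 in control wild type livers (log2, SD, n = 5 each; exact permutation p = 0.294, adjusted over 2 control genes 0.437). For Actb it was 1.45 ± 0.245 and 1.34 ± 0.213 (exact permutation p = 0.437). The sex of the mice is not labelled. Among sex-linked genes, Eif2s3y on the Y chromosome had levels between 9.57 and 10.1 over the 10 arrays, and Xist, the RNA of the inactive X, at or below 4.48. Hepatocyte markers were near the top of the scale in both groups, with Alb, albumin, at 14.38 in restricted progeroid and 14.27 in control wild type livers.

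Ercc1 itself was lower in every restricted progeroid animal. Its level was 5.0, 4.49, 5.08, 4.71 and 4.71 in restricted progeroid livers and 6.51, 6.60, 6.53, 6.62 and 6.44 in control wild type livers, a 3.34-fold lower level (log2 difference -1.74 ± 0.10 SE; limma adjusted p = 4.98e-10). The control progeroid livers had 5.30 ± 0.15 and the restricted wild type livers 6.15 ± 0.12. Of its 4 probe sets, 2 were lower and the other 2, at mean levels of 4.83 and 4.58 over the 20 arrays, differed by 0.013 and -0.045 on the log2 scale. The files do not place these probe sets relative to the deleted bases, so which of them can read the Δ allele was not tested. The 2 groups did not overlap at the probe set used.

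Genes of the repair pathways in which ERCC1 acts were altered mostly upward. Of 21 measured genes of nucleotide excision and crosslink repair 8 were higher and 3 lower, Ercc1 among the lower, where 25.4% of all genes were called, and the median difference was 0.15 against -0.0285 over all genes. Fancc, of the Fanconi anaemia core complex that acts on crosslinks, had 5.56, 5.50, 5.51, 5.38 and 5.25 in restricted progeroid livers, against 4.77, 4.29, 4.43, 4.61 and 4.68 in control wild type livers (1.85-fold higher; 0.88 ± 0.10, adjusted p = 3.35e-06). Lig1, DNA ligase 1, was 1.91-fold higher (0.93 ± 0.16, adjusted p = 0.000168) and Ddb2, a sensor of ultraviolet lesions, 1.54-fold higher (0.63 ± 0.12). Xpa, which verifies damage, was higher by 0.50 ± 0.12 on the log2 scale, and Ercc4, which encodes the partner of ERCC1, by 0.34 ± 0.12 (adjusted p = 0.0393). The call of Ercc4 was lost without any 1 of the restricted progeroid animals 362, 365, 368 and 369 or of the control wild type animals 401, 403, 404 and 405 (adjusted p between 0.061 and 0.0853). In control progeroid livers these 5 genes differed from control wild type livers by -0.033, 0.24, 0.074, -0.10 and -0.12 on the log2 scale, with limma adjusted p between 0.369 and 0.889. Restricted wild type livers also had higher Fancc, Ddb2 and Ercc4 than control wild type livers, by 0.64, 0.46 and 0.38 (limma adjusted p between 0.000159 and 0.0263). Restricted progeroid and restricted wild type livers were not called different at these 3 genes (differences of 0.25, 0.16 and -0.035, adjusted p between 0.117 and 0.883), while Lig1 and Xpa were higher in restricted progeroid livers by 0.58 and 0.43 (adjusted p = 0.0118 and 0.0156).

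An estrogen sulfotransferase, a carrier and alpha-fetoprotein were among the largest rises. Sult1e1, an estrogen sulfotransferase, had 10.55, 9.78, 10.17, 7.96 and 8.83 in restricted progeroid livers and 4.57, 4.39, 4.56, 4.43 and 4.27 in control wild type livers. It was 32.4-fold higher (log2 difference 5.02 ± 0.51, adjusted p = 4.67e-07), and its restricted progeroid values ran from 7.96 to 10.55 while those of the control wild type animals lay within 4.27 to 4.57. Slc16a5, a member of the monocarboxylate transporter family, had 8.63, 8.26, 8.01, 8.19 and 8.34 in restricted progeroid livers, against 4.42, 4.64, 4.76, 3.62 and 4.21 in control wild type livers. Its difference of 15.5-fold (3.96 ± 0.26, adjusted p = 2.53e-09) left no overlap, and restricted progeroid livers were also above control progeroid livers (6.71 ± 0.63; adjusted p = 0.000554). Afp, which encodes alpha-fetoprotein of the fetal liver, had 7.35, 7.64, 7.68, 8.69 and 7.65 in restricted progeroid livers and 4.06, 3.96, 4.19, 4.11 and 4.27 in control wild type livers (12.9-fold; 3.69 ± 0.17, adjusted p = 2.45e-11). The wild type level of Afp is at the array median of 4.17 to 4.21, near the lower end of the scale, where RMA understates folds, and animal 368 was the highest of its group. Control progeroid livers had 8.35 ± 0.14, above the restricted progeroid livers (adjusted p = 0.0394). The control wild type means of Slc16a5 (4.33) and Sult1e1 (4.44) also lay near the array median, so their folds have the same limit. Lcn2, lipocalin 2 of the acute phase response, had 8.73, 9.30, 9.05, 8.58 and 7.93 in restricted progeroid livers and 5.69, 5.45, 5.63, 4.65 and 4.77 in control wild type livers (11.2-fold; 3.48 ± 0.25, adjusted p = 7.05e-09). Pls1, the actin-bundling plastin 1, was 10.7-fold higher (3.42 ± 0.22) and Ifi27l2b, an interferon-inducible gene, 8.24-fold higher (3.04 ± 0.21). No animal of either group reached the range of the other at these genes. Of the 12 largest rises, 6 were already called in control progeroid livers in the same direction, namely Sult1e1, Slc16a5, Afp, Lcn2, Pls1 and Ifi27l2b. The other 6 were Cyp2b9, Fmo2, Sult3a1, Acot3, Lepr and Nipal1, which are taken up with the newly altered genes. Sult1e1, Slc16a5, Lcn2, Pls1 and Ifi27l2b were also called higher in restricted than in control wild type livers. The differences were 5.60, 3.57, 2.06, 1.69 and 1.24 (log2). Afp was not called there (-0.16). Restricted progeroid and restricted wild type livers were not called different at Sult1e1 and Slc16a5 (adjusted p = 0.488 and 0.362). At Lcn2, Pls1, Ifi27l2b and Afp restricted progeroid livers were higher by 1.42, 1.73, 1.81 and 3.84.

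Of the 12 largest falls 5 were those of male-biased liver genes, Serpina4-ps1, Hsd3b5, Elovl3, Cyp4a12a and Serpina12. Serpina4-ps1, an expressed serpin pseudogene, stood at 3.46, 4.56, 3.49, 4.39 and 4.20 in restricted progeroid livers, against 12.41, 10.94, 12.11, 10.63 and 10.23 in control wild type livers. This 151-fold difference (-7.24 ± 0.49, adjusted p = 2.97e-09) left the gene near the array median in restricted progeroid livers, at the lower end of the scale. Control progeroid livers had 9.0 ± 1.03 and restricted wild type livers 6.24 ± 0.89, and restricted progeroid livers were below both (adjusted p = 2.27e-06 and 0.00304). Serpina12, which encodes vaspin, had 8.03, 7.85, 7.28, 7.13 and 7.40 in restricted progeroid livers and 11.87, 11.60, 11.99, 12.13 and 11.97 in control wild type livers (20.7-fold lower; -4.37 ± 0.28, adjusted p = 2.04e-09). Hspa1b, the inducible HSP70 chaperone, had 5.88, 6.12, 6.78, 7.06 and 6.19 in restricted progeroid livers, against 11.19, 10.56, 10.07, 11.22 and 8.20 in control wild type livers, and was 14.4-fold lower (-3.84 ± 0.57, adjusted p = 4.77e-05). The groups did not overlap for these genes, although control wild type animal 405 lay well below the other 4 for Hspa1b. Sult5a1 was 9.64-fold lower (-3.27 ± 0.24), Dio1, the deiodinase that activates thyroxine, 5.21-fold lower (-2.38 ± 0.27), and Gna14, a G protein alpha subunit, 5.64-fold lower (-2.50 ± 0.24). Restricted wild type livers had 6.41 ± 1.38 for Hspa1b and were not called different from restricted progeroid livers (adjusted p = 0.998). Serpina12, Sult5a1, Dio1 and Gna14 were also called lower in restricted than in control wild type livers (-1.31, -1.72, -1.56 and -1.67). They were lower still in restricted progeroid than in restricted wild type livers (-3.07, -1.55, -0.82 and -0.82, all called).

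**Figure D2:**
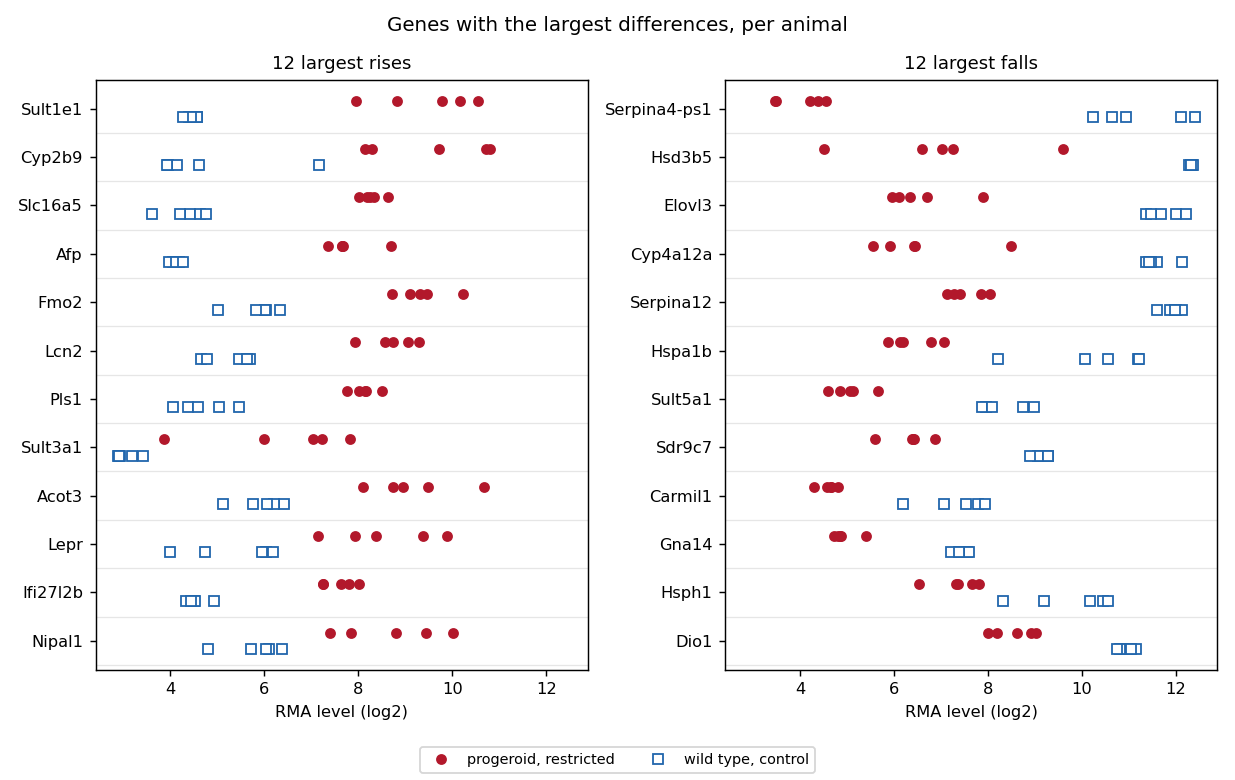
RMA level (x axis, log2) of each restricted progeroid animal (filled circles, upper line of each gene) and each control wild type animal (open squares, lower line) for the 12 genes with the largest rise and the 12 with the largest fall. The groups are separate for all 24 genes, which were picked by that rule.

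Of the 1883 genes that differed between control progeroid and control wild type livers, 190 were back near the normal level in restricted progeroid livers, a count that was 114 without control progeroid animal 323. Back near normal means that the restricted progeroid livers differed from control progeroid livers in the opposite direction, were not called against control wild type livers, and that the 95% interval of that difference lay within 1.5-fold either way. A further 1274 genes were still altered in the same direction, and 14 were altered in the opposite direction. The other 405 were not called against control wild type livers: 371 of them were not called against control progeroid livers either, and for 34 the interval reached past 1.5-fold. Restricted progeroid livers were called against control progeroid livers toward the normal level at 257 of the 1883 genes and away from it at 164, while 1462 were not called. All of these counts come from contrasts that share arrays, so they describe the genes and are no test.

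The 190 genes back near normal comprised 87 that were high and 103 that were low in control progeroid livers. Their median size of difference from control wild type livers was 0.0751 in restricted progeroid livers and 0.435 in control progeroid livers (log2), while for the 1274 genes still altered it was 0.575 in restricted progeroid and 0.502 in control progeroid livers. The classes were defined by these same differences, so the medians follow from the selection and are no test. Cldn1, claudin-1 of the tight junction, had 10.63, 10.05, 9.70, 10.42 and 10.10 in restricted progeroid livers and 9.73, 10.14, 10.57, 9.74 and 10.69 in control wild type livers. The difference was 0.0073 ± 0.22 with a 95% interval from -0.45 to 0.46, and the control progeroid livers had 11.0 ± 0.36. Id2, an inhibitor of basic helix-loop-helix factors, had 11.29, 10.88, 11.32, 11.62 and 11.43 in restricted progeroid livers and 10.44, 10.82, 11.72, 11.34 and 11.84 in control wild type livers (difference 0.073 ± 0.21), against 12.05 ± 0.29 in control progeroid livers. The ranges of the restricted progeroid and control wild type animals overlapped for both genes. Cav1, the caveolar coat protein, was at 5.61 ± 0.24 in restricted progeroid livers and at 5.72 ± 0.28 in control wild type livers, against 6.69 ± 0.55 in control progeroid livers. The gene Sesn3, which encodes a sestrin, was at 8.43 ± 0.18 in restricted progeroid and 8.36 ± 0.25 in control wild type livers, against 9.01 ± 0.27 in control progeroid livers.

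Among the genes that were low in control progeroid livers, Syde2 had 7.42, 7.17, 7.43, 6.94 and 7.29 in restricted progeroid livers and 7.16, 7.12, 6.84, 7.69 and 6.85 in control wild type livers. The groups overlapped, with a difference of 0.12 ± 0.16, and the control progeroid livers had 6.0 ± 0.32. Nfkbia, the inhibitor of NF-κB, had 9.58 ± 0.23 in restricted progeroid livers and 9.66 ± 0.37 in control wild type livers, against 9.02 ± 0.23 in control progeroid livers. Nr3c2, the mineralocorticoid receptor, had 6.99 ± 0.11 in restricted progeroid and 7.16 ± 0.32 in control wild type livers, against 6.38 ± 0.23 in control progeroid livers. Nr1i2, the pregnane X receptor that senses xenobiotics, had 8.36 ± 0.24 in restricted progeroid and 8.30 ± 0.22 in control wild type livers, against 7.84 ± 0.15 in control progeroid livers. The gene Klf15, a factor of fasting metabolism, had 10.70 ± 0.24 in restricted progeroid and 10.62 ± 0.38 in control wild type livers, against 10.05 ± 0.29 in control progeroid livers. Restricted wild type livers were not at the level of the restricted progeroid livers for all of these genes: Cldn1 had 9.01 ± 0.34 there, lower than in restricted progeroid livers by 1.17 (adjusted p = 0.000755), Syde2 8.15 ± 0.19, a difference of -0.90 (adjusted p = 0.000471), and Sesn3 7.63, a difference of 0.80 (adjusted p = 0.000526). Over the gene lists described below, back near normal held 2 interferon-stimulated genes (Dhx58 and Irgm1), 2 thioesterases (Acot7 and Acot12), Klf15, Sesn3, Nr1i2, the coagulation factor F11, Serpina10 and Selenbp2.

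**Figure D3:**
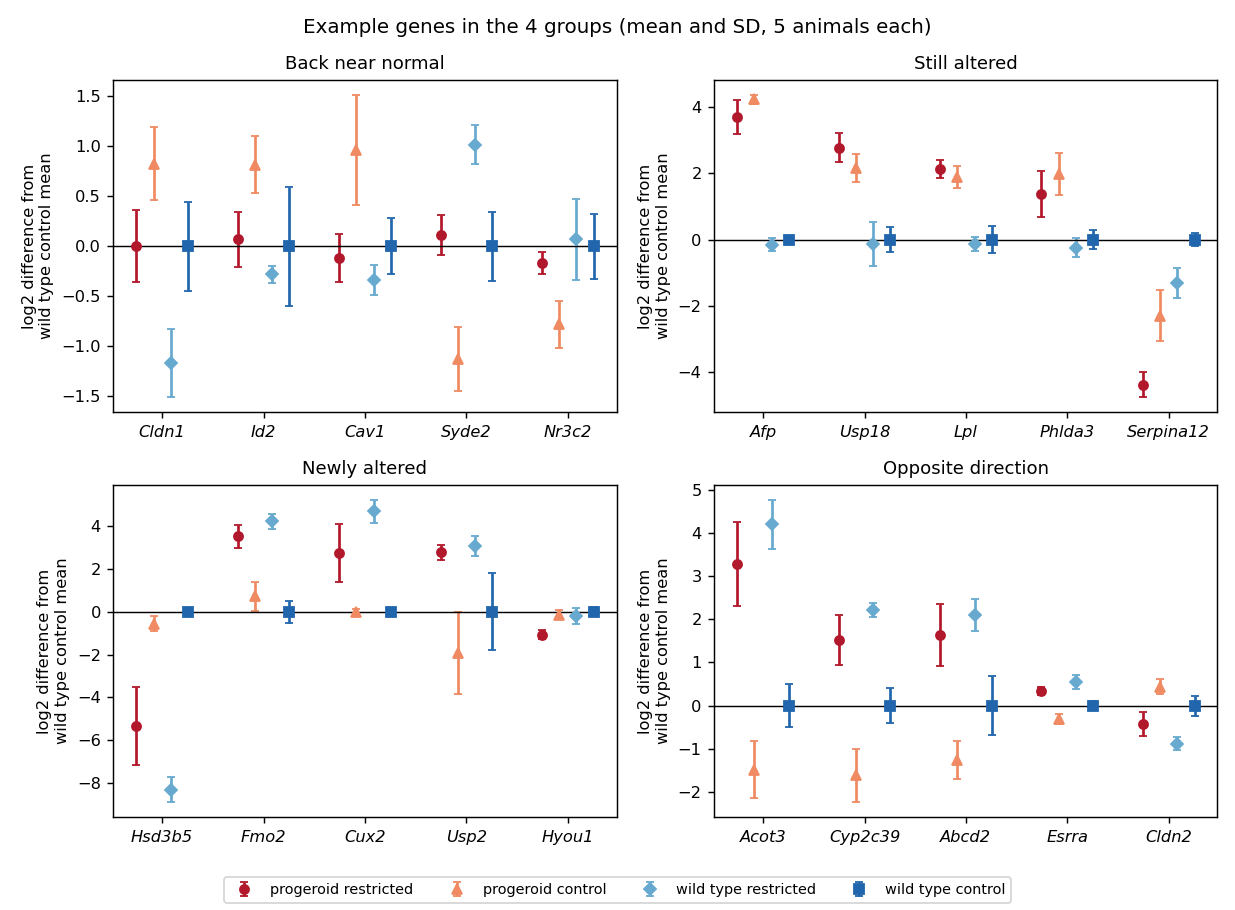
Mean RMA level of a gene minus its mean in control wild type livers (y axis, log2; bars are the SD over 5 animals) in the 4 groups, for 5 genes back near normal, 5 still altered, 5 newly altered and 5 altered in the opposite direction. Genes back near normal depart from 0 in control progeroid livers and lie near it in restricted progeroid livers. For the 5 genes altered in the opposite direction the restricted wild type livers lie on the same side of 0 as the restricted progeroid livers.

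The genes still altered were 823 higher and 451 lower ones. Against control progeroid livers 1091 of the 1274 were not called, 164 lay further from normal and 19 lay closer while still altered. Against restricted wild type livers, a contrast that shares the restricted progeroid arrays, 716 of the 1274 were called in the same direction, 551 were not called and 7 were called in the opposite direction, where 17.2% of all genes were called.

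Some targets of p53, the factor that answers DNA damage, were still high in restricted progeroid livers. Of 24 measured targets 12 were higher and 0 lower than in control wild type livers, where 13.9% of all genes were higher. The median difference was 0.4. In control progeroid livers 11 were higher, where 6.7% of all genes were. The calls of both comparisons shared 8 targets, and 12 of the 24 were not called in restricted progeroid livers. Cdkn1a, the gene of p21, which halts the cell cycle, had 6.15, 6.87, 6.49, 6.88 and 6.28 in restricted progeroid livers, against 5.68, 5.54, 5.80, 5.81 and 5.68 in control wild type livers. It was 1.78-fold higher (0.83 ± 0.27, adjusted p = 0.0275), with no overlap, and was lower than in control progeroid livers, which had 7.72 ± 0.61 (adjusted p = 0.0064). Its call against control wild type livers was lost when its probe sets were averaged (adjusted p = 0.092), and without restricted progeroid animal 365 or 368 or control wild type animal 402 (adjusted p between 0.0596 and 0.0688). Phlda3, an inhibitor of AKT, had 4.46, 5.67, 5.76, 6.34 and 5.28 in restricted progeroid livers and 4.44, 4.26, 4.24, 3.86 and 3.80 in control wild type livers (2.6-fold; 1.38 ± 0.29, adjusted p = 0.00143), where animal 362 lay just above the wild type range. Eda2r, a death-receptor relative, had 3.64, 5.44, 5.53, 5.50 and 4.53 in restricted progeroid livers and 3.41, 3.61, 3.72, 3.60 and 3.37 in control wild type livers (2.62-fold; 1.39 ± 0.29, adjusted p = 0.0013). Animal 362 was within the wild type range of Eda2r and the other 4 restricted progeroid animals were above it. Mdm2, the ubiquitin ligase of p53, differed by 0.16 ± 0.10 (adjusted p = 0.23) and did not pass. Of 29 cell cycle and replication genes 6 were higher and 1 lower, a share of 24.1% called, near the 25.4% of all genes. Mcm6, of the replicative helicase, was 2.8-fold higher (1.48 ± 0.17, adjusted p = 1.75e-06). Ccne2, cyclin E2, was 2.74-fold higher (1.45 ± 0.25) over a wild type level near the lower end of the scale. Mki67, a marker of proliferating cells, differed by -0.058 ± 0.21 (adjusted p = 0.874). Its means, 3.69 in restricted progeroid and 3.75 in control wild type livers, lay near the lower end of the scale. Of the 29 genes 10, Mki67 among them, had means below 4 in both groups, where a missing call says little.

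Interferon-stimulated genes were also still high, 17 of them called higher in both progeroid groups. In restricted progeroid livers 17 of 30 were higher and 2 lower than in control wild type livers, with a median difference of 0.39. Over all genes 13.9% were higher and 11.5% lower. Control progeroid livers had 21 of the 30 higher, where 6.7% of all genes were, and 0 lower, with a median of 0.59. Restricted wild type livers had 0 higher and 15 lower, where 12.6% of all genes were lower. Set against restricted wild type livers, restricted progeroid livers had 27 of the 30 higher and 0 lower, where 11.8% of all genes were higher. Usp18, the protease that takes ISG15 off proteins, had 8.33, 9.38, 9.38, 9.10 and 8.85 in restricted progeroid livers and 6.27, 6.35, 6.75, 6.02 and 5.77 in control wild type livers, and was 6.84-fold higher (2.77 ± 0.28, adjusted p = 4.01e-07). Gbp3, a guanylate-binding protein, had 7.63, 8.11, 8.54, 8.10 and 7.87 in restricted progeroid livers and 6.67, 6.49, 6.60, 6.32 and 6.06 in control wild type livers (3.08-fold; 1.62 ± 0.18, adjusted p = 1.99e-06). Ifit1, which binds foreign RNA ends, had 6.19, 7.32, 7.35, 7.29 and 7.26 in restricted progeroid livers and 5.82, 5.98, 6.91, 6.14 and 5.82 in control wild type livers, and animal 362 fell within the wild type range (1.93-fold; 0.95 ± 0.31, adjusted p = 0.0283). The call of Ifit1 was lost without any 1 of the restricted progeroid animals 365, 366, 368 and 369 or of the control wild type animals 401, 402 and 405 (adjusted p between 0.0588 and 0.0643), whereas Usp18 and Gbp3 showed no overlap. Irf7, a factor that drives interferon genes, was 2.52-fold higher (1.33 ± 0.16), and Ifih1, a sensor of double-stranded RNA, 1.78-fold higher (0.83 ± 0.11). The 2 lower members were Stat2, by 0.51 on the log2 scale, and Oas3. Of the antigen presentation genes 3 of 15 were higher and 5 lower, together 53.3%, where 25.4% of all genes were called. The class II genes H2-Aa, H2-Ab1, H2-Eb1, H2-DMa and Cd74 were lower, H2-Aa by 1.12. Nlrc5, the class I transactivator, was higher by 1.01 ± 0.16.

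The core of the interferon-stimulated response element, GAAA and GAAA with 2 bases of any kind between them, on either strand, lay in the promoters of 14 of the 21 measured interferon-stimulated genes that had a promoter in the RefSeq table (GRCm38.p6), a share of 66.7%. It lay in 1131 of all 32851 promoters of 300 bases, 3.44%. The first share is counted over genes, any promoter of which may match, and the second over promoters. Of the 14 genes with a match, 7 were higher in restricted progeroid livers (Ifit1, Ifit3, Rsad2, Ddx58, Ifih1, Trim30a and Gbp3) and 2 were lower (Stat2 and Oas3). The promoters of Gbp3 and Ifit1, the genes described above, are shown because they remained high; each is 300 bases long and spans the start of the gene, 5′ to 3′, on the strand of the gene, with the matches in capitals (2 matches in each, which overlap in Gbp3).
Gbp3, chr3:142559794-142560093, plus strand: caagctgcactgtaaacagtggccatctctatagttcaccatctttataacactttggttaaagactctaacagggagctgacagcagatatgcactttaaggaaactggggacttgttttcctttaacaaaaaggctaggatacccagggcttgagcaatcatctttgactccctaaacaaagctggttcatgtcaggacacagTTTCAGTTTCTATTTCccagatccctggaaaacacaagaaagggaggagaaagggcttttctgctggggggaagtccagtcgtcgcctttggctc
Ifit1, chr19:34640639-34640938, plus strand: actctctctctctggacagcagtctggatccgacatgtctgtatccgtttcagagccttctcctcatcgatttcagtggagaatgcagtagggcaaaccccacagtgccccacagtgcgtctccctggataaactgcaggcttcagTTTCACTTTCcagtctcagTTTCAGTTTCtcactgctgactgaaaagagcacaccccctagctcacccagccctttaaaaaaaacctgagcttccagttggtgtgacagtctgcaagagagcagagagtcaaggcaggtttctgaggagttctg
A match describes the letters of the window and no binding was measured.

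Markers of other liver cells were called in shares of 38.9% (Kupffer cell and macrophage), 40% (neutrophil and monocyte), 20% (lymphocyte), 25% (endothelial), 16.7% (stellate cell and matrix) and 0% (cholangiocyte), where 25.4% of all genes were called. Of 18 Kupffer cell and macrophage markers 6 were higher and 1 lower in restricted progeroid than in control wild type livers. Marco, a scavenger receptor, was 4.13-fold higher (2.05 ± 0.36, adjusted p = 0.000279) and Vsig4 1.46-fold higher (0.55 ± 0.13), whereas the Kupffer cell markers Clec4f and Timd4 differed by 0.17 ± 0.13 (adjusted p = 0.36) and 0.0041 ± 0.18 (adjusted p = 0.991). The mean level of the 18 markers was 7.41 to 8.13 in restricted progeroid and 7.22 to 7.55 in control wild type animals. Of 10 neutrophil and monocyte markers 2 were higher and 2 lower. S100a8, a calgranulin subunit, had 4.89, 4.26, 4.78, 4.35 and 5.35 in restricted progeroid livers and 3.04, 3.57, 3.35, 2.99 and 3.55 in control wild type livers (2.69-fold; 1.43 ± 0.19, adjusted p = 1.05e-05), with no overlap, while the granule genes Ngp, Camp, Ltf and Mpo had group means below 4 in both groups, near the lower end of the scale. The mean level of these 10 markers was 4.15 to 4.37 in restricted progeroid and 4 to 4.12 in control wild type animals. Lymphocyte markers gave 0 higher and 3 lower of 15, and endothelial markers 1 higher and 2 lower of 12. Of 18 stellate cell and matrix genes 3 were higher, the proteoglycans Lum (2.06-fold) and Dcn (1.44-fold) and the collagen Col4a1 (1.54-fold). The mean level of the 18 was 7.03 to 7.37 in restricted progeroid and 6.84 to 7.1 in control wild type animals. None of 6 cholangiocyte markers was called by limma, and 1 had an unadjusted p below 0.05. However, 4 of these 6 markers had group means below 4 in both groups, near the lower end of the scale. The same held for 9 of the 15 lymphocyte markers, so few calls in these 2 lists say little about the cells. Among pancreatic genes, Amy2a5 was at 4.82 ± 0.51 in restricted progeroid and 2.77 ± 0.12 in control wild type livers and Cela1 was lower by 1.20, with Prss1 near the lower end of the scale in both groups. The part of these cells in the differences above was not tested.

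Glutathione transferases, which detoxify electrophiles, were mostly higher. Of 18 glutathione transferases 12 were higher and 2 lower, where 13.9% of all genes were higher and 11.5% lower, with a median difference of 0.46. Gsta2 had 10.90, 11.14, 10.87, 11.38 and 11.36 in restricted progeroid livers and 8.49, 8.42, 9.11, 9.10 and 8.35 in control wild type livers (5.41-fold; 2.43 ± 0.21, adjusted p = 7.18e-08), with no overlap, and Gstm3 was 3.81-fold higher (1.93 ± 0.18). Gstp1, which is male-biased, was lower by 0.49. Of 21 targets of NRF2, the antioxidant regulator, 6 were higher and 1 lower, together 33.3%, where 25.4% of all genes were called. Nqo1, a quinone reductase, had 8.0, 8.23, 8.13, 8.10 and 8.24 in restricted progeroid livers and 5.60, 5.96, 5.71, 5.58 and 5.54 in control wild type livers, and was 5.51-fold higher (2.46 ± 0.15, adjusted p = 1.01e-09). Control progeroid and restricted wild type livers had 6.96 ± 0.47 and 7.26 ± 0.10, and the restricted progeroid level was higher than that of restricted wild type livers (adjusted p = 0.000342). Hmox1, heme oxygenase 1, differed by 0.017 ± 0.23 (adjusted p = 0.967). Gpx6, a glutathione peroxidase, had 6.84, 7.85, 8.21, 7.54 and 7.40 in restricted progeroid livers and 4.59, 4.71, 4.79, 4.41 and 4.85 in control wild type livers (7.45-fold; 2.90 ± 0.22, adjusted p = 1.34e-08), and Mt1, metallothionein 1, which binds zinc, was 6.09-fold higher (2.61 ± 0.51, adjusted p = 0.000707).

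Where 13.9% of all genes were higher and 11.5% lower, fetal and imprinted growth genes were higher in 6 of 10 cases and lower in 0. Besides Afp these were Spink1, a trypsin inhibitor (2.71-fold; 1.44 ± 0.19), Cd24a (2.04-fold), Plagl1, Bex1 (2.17-fold) and Cdkn1c, which encodes the growth inhibitor p57 (2.28-fold; 1.19 ± 0.17). Cdkn1c was at 4.93 ± 0.23 in control progeroid livers and Bex1 at 3.64 ± 0.26, against 5.0 ± 0.26 and 3.39 ± 0.072 in control wild type livers, with adjusted p = 0.85 and 0.52 for that comparison. The wild type levels of Bex1 and Spink1 (3.28) lay near the lower end of the scale. Of 23 acute phase genes 6 were higher and 2 lower, together 34.8%, where 25.4% of all genes were called. Orm2, an orosomucoid, was 2.91-fold higher (1.54 ± 0.28) and Saa4 lower by 1.17, while Saa1 differed by -0.21 ± 0.41 (adjusted p = 0.75).

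The newly altered genes numbered 1157, 684 higher and 473 lower. They were called in restricted progeroid against control wild type livers, not called in control progeroid livers, and called in the same direction between restricted and control progeroid livers. A gene not called in control progeroid livers may still have differed there. Against restricted wild type livers 853 of the 1157 were not called, of which 739 had a 95% interval within 1.5-fold, while 215 were called in the same direction and 89 in the opposite direction. A further 1897 genes were called against control wild type livers without being called in control progeroid livers or in the same direction between the 2 progeroid groups.

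Male-biased liver genes were lower throughout. All 15 measured members were lower in restricted progeroid than in control wild type livers, where 11.5% of all genes were lower. The median difference was -1.5. Control progeroid livers had 3 of the 15 lower and restricted wild type livers 14, where 4.32% and 12.6% of all genes were lower. Hsd3b5, a steroid reductase of the male liver, had 4.51, 7.02, 6.59, 9.60 and 7.25 in restricted progeroid livers and 12.35, 12.28, 12.33, 12.36 and 12.31 in control wild type livers (40.2-fold lower; -5.33 ± 0.55, adjusted p = 5.89e-07). Elovl3, a fatty acid elongase, had 6.70, 6.10, 5.96, 7.88 and 6.34 in restricted progeroid livers and 11.67, 11.37, 12.01, 11.48 and 12.22 in control wild type livers (35.6-fold lower; -5.15 ± 0.33, adjusted p = 2.07e-09). No restricted progeroid animal reached the wild type range of either gene, and animal 368 was the highest for both. Both genes kept more signal than in restricted wild type livers, which had 4.01 ± 0.58 for Hsd3b5 and 4.83 ± 0.40 for Elovl3 (restricted progeroid minus restricted wild type 2.98 ± 0.55, adjusted p = 0.000665, and 1.77 ± 0.33, adjusted p = 0.000866). Cyp4a12a, an arachidonic acid hydroxylase, was 32.6-fold lower than in control wild type livers (-5.03 ± 0.38), and was higher than in restricted wild type livers by 2.89 ± 0.38 (adjusted p = 2.63e-05). In restricted progeroid livers 7 of the 15 were higher and 2 lower than in restricted wild type livers. Over all genes 11.8% were higher and 5.44% lower in that comparison. The 2 lower members were Serpina12 and Serpina4-ps1.

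Female-biased liver genes were higher in 13 of 17 cases and lower in 0, where 13.9% of all genes were higher and 11.5% lower. The median difference was 1.6. Restricted wild type livers had 14 of the 17 higher and 0 lower than control wild type livers, with a median of 2.9. Over all genes 9.92% were higher there. Control progeroid livers had 1 higher and 3 lower, where 6.7% and 4.32% of all genes were. Against restricted wild type livers, restricted progeroid livers had 2 higher and 5 lower, where 11.8% and 5.44% of all genes were. Cyp2b9, a female-specific cytochrome P450, had 10.73, 8.28, 10.81, 8.15 and 9.71 in restricted progeroid livers and 3.95, 7.16, 4.13, 4.61 and 3.92 in control wild type livers (27.5-fold; 4.78 ± 0.60, adjusted p = 6.59e-06). Control wild type animal 402 lay above the other 4 of its group, without reaching the restricted progeroid range, and restricted wild type livers stood higher still at 11.81 ± 0.18 (restricted progeroid minus restricted wild type -2.27 ± 0.60, adjusted p = 0.0109). Fmo2, a flavin-containing monooxygenase, had 9.32, 10.22, 9.45, 8.72 and 9.10 in restricted progeroid livers and 6.03, 6.33, 6.02, 5.83 and 5.0 in control wild type livers (11.5-fold; 3.52 ± 0.30, adjusted p = 5.13e-08). Cux2, a repressor of male-biased genes that female livers express, had 7.52, 7.79, 7.36, 4.91 and 5.35 in restricted progeroid livers, against 3.95, 4.02, 3.71, 3.75 and 3.75 in control wild type livers (6.73-fold; 2.75 ± 0.41, adjusted p = 5.71e-05), and 8.53 ± 0.53 in restricted wild type livers. Animals 368 and 369 had less Cux2 than the other 3 restricted progeroid animals and still more than every control wild type animal. Sult3a1, a sulfotransferase, was 9.96-fold higher (3.32 ± 0.57). The control wild type means of Cux2 (3.83) and Sult3a1 (3.07) lay below the array medians, near the lower end of the scale, so these folds are estimates that RMA understates. The probe sets of near-identical family members, such as those of the Mup, Cyp2c, Cyp3a and Gstm genes, may read more than 1 gene.

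In the growth hormone axis itself 5 of 20 genes were higher and 7 lower, together 60%, where 25.4% of all genes were called. Ghr, the growth hormone receptor, had 11.75, 11.75, 11.93, 11.96 and 11.97 in restricted progeroid livers and 12.75, 12.77, 12.70, 12.81 and 12.73 in control wild type livers (1.84-fold lower; -0.88 ± 0.072, adjusted p = 3.36e-08). It was lower in restricted progeroid livers than in control progeroid (12.35 ± 0.065; adjusted p = 0.000212) and than in restricted wild type livers (12.17 ± 0.17; adjusted p = 0.00558). Igf1, the growth factor that the receptor induces, was lower by 0.35 and Igfals, which carries it in blood, by 0.73 on the log2 scale. Without probe sets of the suffix x, s or a Igf1 differed by -0.15 and was not called (adjusted p = 0.248). Bcl6, a repressor of female-biased genes, was 5.07-fold lower (-2.34 ± 0.63, adjusted p = 0.00884) and Socs2, a feedback inhibitor of the receptor, 6.52-fold higher (2.71 ± 0.62, adjusted p = 0.00304). Thrb, the main thyroid hormone receptor of the liver, was lower by 0.84. Lepr, the leptin receptor, had 9.88, 8.38, 9.37, 7.14 and 7.94 in restricted progeroid livers and 6.03, 6.19, 3.98, 4.74 and 5.96 in control wild type livers (8.96-fold; 3.16 ± 0.49, adjusted p = 7.87e-05), with restricted wild type livers at 9.32 ± 0.59. The other probe sets of Lepr differed by 3.10, 1.31 and 0.021, the last at a mean level of 4.0, near the lower end of the scale.

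Clock genes moved both ways. Of 15 core clock genes 6 were higher and 2 lower, and of 16 clock output genes 7 were higher and 2 lower, with Ciart in both lists. The shares called were 53.3% and 56.2%, where 25.4% of all genes were called. Cry2, a clock repressor, had 8.29, 8.27, 8.24, 8.38 and 8.42 in restricted progeroid livers and 6.98, 7.39, 7.09, 7.50 and 7.14 in control wild type livers (2.14-fold; 1.10 ± 0.11, adjusted p = 6.88e-07). Per3 was 4.38-fold higher (2.13 ± 0.39). Usp2, a clock-controlled deubiquitinase, had 9.0, 9.86, 9.63, 9.46 and 9.83 in restricted progeroid livers and 7.60, 7.97, 5.28, 8.54 and 4.44 in control wild type livers (6.92-fold; 2.79 ± 0.76, adjusted p = 0.00989), with control wild type animals spread from 4.44 to 8.54 below the restricted progeroid range. Nfil3, a repressor that competes with DBP at its sites, had 6.72, 5.92, 5.40, 6.17 and 6.12 in restricted progeroid livers and 7.32, 8.03, 8.38, 8.41 and 9.04 in control wild type livers (4.5-fold lower; -2.17 ± 0.34, adjusted p = 7.55e-05). Arntl, the activator BMAL1, differed by -1.33 ± 0.65 (adjusted p = 0.139), and was called with array weights (adjusted p = 0.0416). The food was given just before the dark period, and the hour at which livers were taken is not given in the labels, so diet and time since feeding cannot be told apart for these genes.

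Organic anion and drug transporters were also altered, 6 of 16 higher and 5 lower, together 68.8% against 25.4% of all genes. Newly altered were 8 of the 16, where 6.77% of all genes were. Restricted wild type livers had 8 of the 16 higher and 6 lower than control wild type livers, where 9.92% and 12.6% of all genes were. Abcb1a, the P-glycoprotein efflux pump, was 6.35-fold higher (2.67 ± 0.31, adjusted p = 2.28e-06) and Slco1a4, an uptake carrier, 4.37-fold higher (2.13 ± 0.21). Slc22a7, the organic anion transporter OAT2, had 8.28, 8.47, 8.56, 9.43 and 8.25 in restricted progeroid livers and 10.83, 10.78, 10.89, 10.85 and 10.67 in control wild type livers (4.61-fold lower; -2.21 ± 0.26, adjusted p = 2.72e-06), where animal 368 was the highest of its group and still below every control wild type animal. Among complement and coagulation genes 1 of 28 was higher and 7 were lower, together 28.6%, near the 25.4% of all genes. The components C6, C8a, C8b and C9 of the membrane attack complex were lower by 1.48, 1.64, 1.38 and 0.80 on the log2 scale. Each of the 4 was lower still in restricted wild type livers, with restricted progeroid minus restricted wild type differences of 2.43, 1.23, 1.18 and 1.21 (adjusted p between 2.95e-06 and 0.000349).

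Chaperones of the endoplasmic reticulum were lower in restricted progeroid livers. Of 26 genes of endoplasmic reticulum stress and the integrated stress response 16 were lower and 2 higher, with a median difference of -0.49. Over all genes 11.5% were lower and 13.9% higher. Control progeroid livers had 3 of the 26 lower and 2 higher, where 4.32% and 6.7% of all genes were. Restricted wild type livers had 10 lower and 0 higher than control wild type livers, with a median difference of -0.24. Over all genes 12.6% were lower and 9.92% higher there. Hyou1, a large chaperone of the lumen, had 7.70, 7.34, 7.14, 7.37 and 7.25 in restricted progeroid livers and 8.56, 8.46, 8.22, 8.71 and 8.22 in control wild type livers (2.11-fold lower; -1.08 ± 0.16, adjusted p = 4.26e-05). It was also lower than in restricted wild type livers, which had 8.24 ± 0.39 (difference -0.88 ± 0.16, adjusted p = 0.000526). Hspa5, the chaperone BiP, had 11.71, 11.41, 11.64, 11.76 and 11.91 in restricted progeroid livers and 12.64, 12.32, 12.12, 12.56 and 12.09 in control wild type livers (1.58-fold lower; -0.66 ± 0.13, adjusted p = 0.000691). Creld2, a protein that endoplasmic reticulum stress induces, had 8.20, 7.94, 8.19, 8.08 and 8.16 in restricted progeroid livers and 11.59, 10.42, 8.98, 10.63 and 8.90 in control wild type livers (3.97-fold lower; -1.99 ± 0.40, adjusted p = 0.000934). The restricted progeroid animals lay close together for Creld2, within 7.94 to 8.20, and the control wild type animals far apart, between 8.90 and 11.59, with no overlap. Manf was 2.14-fold lower and Pdia6, a disulfide isomerase, 1.49-fold lower. The 2 members that were higher are targets of ATF4: Trib3, a pseudokinase (4.82-fold; 2.27 ± 0.28, adjusted p = 5.97e-06), and Asns, asparagine synthetase. Against restricted wild type livers 7 of the 26 were lower and 1 higher, where 5.44% of all genes were lower and 11.8% higher.

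The endoplasmic reticulum stress response element, CCAAT and CCACG with 9 bases of any kind between them, on either strand, lay in the promoters of 8 of the 23 measured members with a promoter in the table, 34.8%, and in 39 of all 32851 promoters, 0.119%. Here too the first share is counted over genes and the second over promoters. Of the 8 genes, 6 were called in restricted progeroid livers: Hspa5, Creld2, Pdia6, Calr, Canx and Syvn1, all lower. Those of Creld2, with the largest fall among them, and of Hspa5 are shown, with the match in capitals.
Creld2, chr15:88819396-88819695, plus strand: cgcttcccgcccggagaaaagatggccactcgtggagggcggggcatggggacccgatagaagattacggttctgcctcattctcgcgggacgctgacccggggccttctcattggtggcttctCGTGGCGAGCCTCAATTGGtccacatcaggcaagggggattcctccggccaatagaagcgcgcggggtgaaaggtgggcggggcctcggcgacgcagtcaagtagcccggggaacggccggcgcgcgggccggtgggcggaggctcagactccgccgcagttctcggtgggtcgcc
Hspa5, chr2:34771840-34772139, plus strand: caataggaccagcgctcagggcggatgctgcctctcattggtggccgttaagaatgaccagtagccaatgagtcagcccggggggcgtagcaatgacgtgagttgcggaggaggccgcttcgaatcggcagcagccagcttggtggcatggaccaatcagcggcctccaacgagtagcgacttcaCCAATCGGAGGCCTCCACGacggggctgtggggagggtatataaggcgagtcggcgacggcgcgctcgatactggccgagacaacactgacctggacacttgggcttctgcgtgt
In Creld2 the match lies on the strand opposite to the gene and in Hspa5 on the strand of the gene.

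Heat shock genes were lower in 12 of 17 cases, the list including 2 cold-inducible RNA-binding proteins, and higher in 1. Over all genes 11.5% were lower and 13.9% higher. Besides Hspa1b, Hsph1, the HSP110 chaperone, had 6.53, 7.33, 7.80, 7.66 and 7.37 in restricted progeroid livers and 10.45, 10.17, 9.19, 10.56 and 8.32 in control wild type livers (5.29-fold lower; -2.40 ± 0.50, adjusted p = 0.0013). Hsp90aa1 was 2.33-fold lower (-1.22 ± 0.24) and Dnajb1, a co-chaperone of HSP70, 2.49-fold lower (-1.32 ± 0.28). The 1 higher gene was Cirbp, which cold induces, with 9.40, 9.10, 8.89, 8.80 and 9.10 in restricted progeroid livers and 6.81, 7.03, 7.55, 6.16 and 7.76 in control wild type livers (3.99-fold; 2.0 ± 0.23, adjusted p = 3.18e-06). The groups did not overlap for either gene. Rbm3, the other cold-inducible gene, was among the lower ones. In restricted wild type livers 11 of the 17 were lower than in control wild type livers, where 12.6% of all genes were. The heat shock element was taken as GAA, TTC and GAA with 2 bases of any kind between neighbours on either strand. It was in the promoters of 3 of 13 members with one in the table (Hsph1, Hspe1 and Chordc1). Counted over promoters and not over genes, it was in 0.603% of all.

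**Figure D4:**
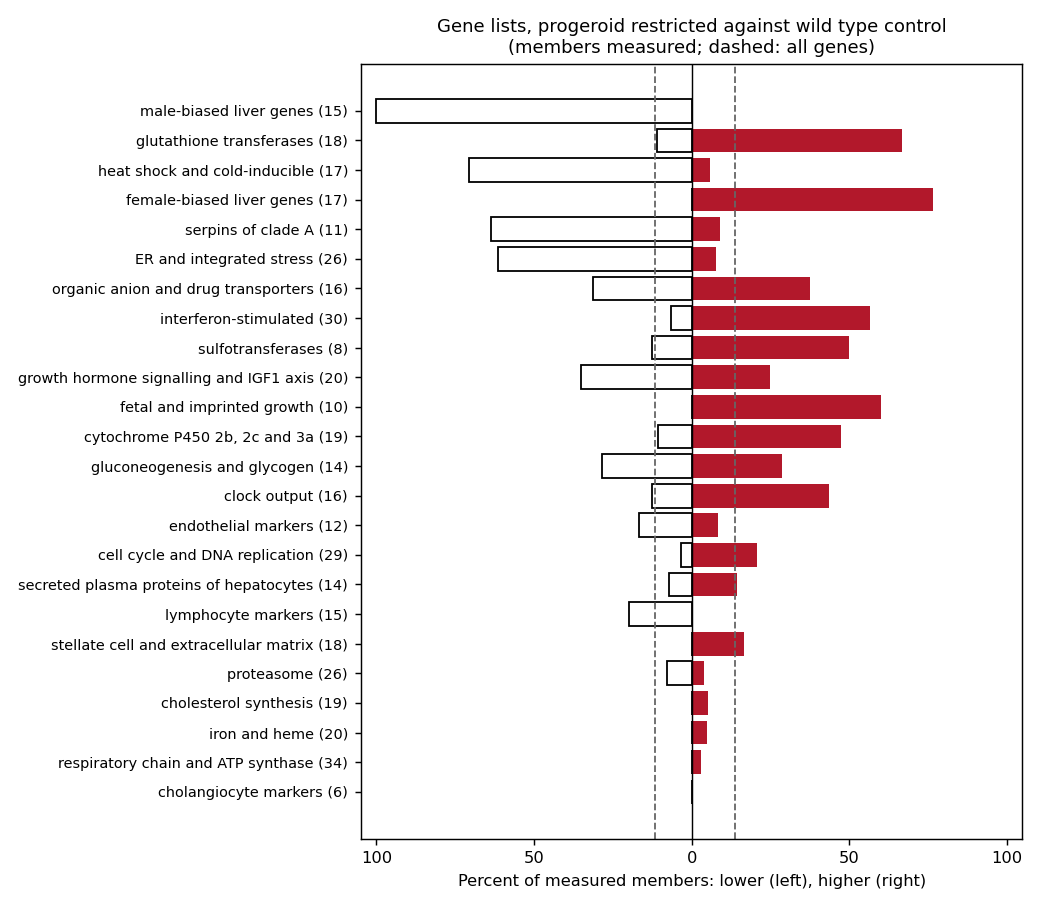
Percent of the measured members of each gene list that were higher (right, filled) and lower (left, open) in restricted progeroid than in control wild type livers, for the 14 lists with the highest and the 10 with the lowest share called. The bar of the male-biased list reaches 100% lower, and the cholangiocyte markers have no bar. Dashed lines mark the shares over all 17097 genes, 13.9% higher and 11.5% lower.

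Lipid genes were called in both directions. Of 19 fatty acid synthesis genes 5 were lower and 0 higher than in control wild type livers, with a median difference of -0.34; the share called, 26.3%, is near the 25.4% of all genes. Against restricted wild type livers 13 of the 19 were lower, where 5.44% of all genes were, with a median difference of -1.4. Mlxipl, which encodes the carbohydrate-responsive factor ChREBP, had 10.62, 10.38, 10.40, 10.83 and 10.70 in restricted progeroid livers and 11.16, 11.64, 11.22, 11.55 and 11.29 in control wild type livers (1.73-fold lower; -0.79 ± 0.13, adjusted p = 0.000165), with no overlap. Fasn, fatty acid synthase, differed by -0.55 ± 0.48 from control wild type livers (adjusted p = 0.426) and was lower than in restricted wild type livers by 1.69 (adjusted p = 0.0182). Cholesterol synthesis genes gave 1 higher (Lss) and 0 lower of 19, 5.26% called against 25.4% of all genes. Of 23 fatty acid oxidation genes and PPARα targets 7 were higher and 4 lower, together 47.8% against 25.4% of all genes. Ehhadh, the peroxisomal bifunctional enzyme, was 1.59-fold higher (0.67 ± 0.12) and Cyp4a10, an omega-hydroxylase, 3.97-fold higher (1.99 ± 0.41, adjusted p = 0.00134), while Acaa1b, the peroxisomal thiolase, was lower by 0.55. Cd36, a fatty acid importer, had 10.12, 9.80, 10.19, 9.86 and 9.98 in restricted progeroid livers and 7.60, 7.40, 8.20, 7.65 and 7.40 in control wild type livers (5.08-fold; 2.34 ± 0.20, adjusted p = 3.94e-08). Lpl, lipoprotein lipase, which the adult liver normally keeps low, had 9.70, 9.39, 9.81, 9.80 and 10.14 in restricted progeroid livers and 7.85, 7.31, 7.90, 7.12 and 8.07 in control wild type livers (4.34-fold; 2.12 ± 0.18, adjusted p = 5.75e-08), and restricted wild type livers were at 7.51 ± 0.21. For Cd36 and Lpl the groups were more than 1 unit apart.

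In glucose metabolism 4 of 14 genes were higher and 4 lower, together 57.1%, where 25.4% of all genes were called. G6pc, glucose-6-phosphatase, was 2.5-fold lower (-1.32 ± 0.32, adjusted p = 0.00418) and Gpt, alanine aminotransferase, 1.69-fold higher (0.75 ± 0.10). Subunits that bring protein phosphatase 1 to glycogen went apart: Ppp1r3b and Ppp1r3c were lower by 1.29 and 1.30, and Ppp1r3g was higher by 1.86 ± 0.41. Of 26 genes of amino acid breakdown and the urea cycle 7 were higher and 2 lower, together 34.6% against 25.4% of all genes. Mat1a, which makes S-adenosylmethionine, was higher by 0.59 ± 0.067 (adjusted p = 2.2e-06) and Asl, of the urea cycle, by 0.42 ± 0.10. In bile acid metabolism 5 of 20 were higher and 4 lower, together 45% against 25.4% of all genes. Cyp7a1, the rate-limiting enzyme, was 4.05-fold higher (2.02 ± 0.47, adjusted p = 0.00331) and Cyp7b1, the male-biased enzyme of the other pathway, 3.27-fold lower (-1.71 ± 0.21).

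Among lists of secreted and signalling genes the share called was 72.7% for serpins of clade A, 25% for apolipoproteins, 36.8% for insulin and FOXO, 31.6% for immediate early genes, 35% for autophagy and 35.7% for sirtuins, where 25.4% of all genes were called. Of 11 serpins of clade A 7 were lower and 1 was higher, Serpina3n. The antitrypsin genes Serpina1a, Serpina1c and Serpina1d, near the top of the scale, were lower by 0.44, 0.39 and 0.92 on the log2 scale. Of 16 genes of apolipoproteins and lipoprotein assembly 2 were higher and 2 lower. Apoa4, an apolipoprotein that fasting induces in mouse liver, had 12.56, 12.92, 12.06, 12.29 and 12.62 in restricted progeroid livers and 10.48, 10.44, 11.69, 10.75 and 11.53 in control wild type livers (2.86-fold; 1.52 ± 0.22, adjusted p = 3.76e-05). In the insulin and FOXO list 4 of 19 were higher and 3 lower. Igfbp1, which binds IGF1 and which insulin represses, had 12.28, 12.68, 12.03, 11.66 and 11.86 in restricted progeroid livers and 10.31, 11.29, 10.79, 10.23 and 11.43 in control wild type livers (2.45-fold; 1.29 ± 0.31, adjusted p = 0.00419), and Irs1, an insulin receptor substrate, was lower by 0.65. The groups did not overlap for Apoa4 and Igfbp1. Of 19 immediate early genes 5 were higher and 1 lower, with Myc 3.91-fold higher (1.97 ± 0.47, adjusted p = 0.00427). Of 20 genes of autophagy and the lysosome 5 were lower and 2 higher. Atg7, an enzyme of the conjugation step of autophagy, was lower by 0.79 (adjusted p = 6.65e-06) and Ulk2, a kinase that starts it, by 0.96. The other probe sets of Atg7 differed by -0.13, -0.18 and -0.10 and were not called (limma adjusted p over probe sets between 0.212 and 0.486). Of 14 genes of sirtuins and NAD metabolism 2 were higher and 3 lower, with Sirt5, a mitochondrial desuccinylase, higher by 0.60 ± 0.084.

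The 14 genes altered in opposite directions in the 2 progeroid groups were low in control progeroid and high in restricted progeroid livers in 12 cases. Acot3, a peroxisomal acyl-CoA thioesterase, had 10.68, 8.74, 9.47, 8.11 and 8.95 in restricted progeroid livers and 6.42, 6.20, 6.06, 5.76 and 5.13 in control wild type livers (9.71-fold higher; 3.28 ± 0.39, adjusted p = 4.14e-06). Control progeroid livers had 4.43 ± 0.66, below the control wild type livers, and every restricted progeroid animal was above every control wild type animal. Cyp2c39 and Abcd2, a peroxisomal transporter of fatty acids, followed the same course, 2.88-fold and 3.09-fold higher in restricted progeroid than in control wild type livers and -1.62 and -1.26 (log2) in control progeroid livers. Esrra, a nuclear receptor of mitochondrial genes, was higher by 0.34 ± 0.08 in restricted progeroid livers and differed by -0.31 in control progeroid livers. Cldn2, claudin-2, took the opposite course, lower by 0.44 in restricted progeroid livers and higher by 0.43 in control progeroid livers, and so did Hsd3b6.

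Several gene groups had few calls. Of 34 genes of the respiratory chain and ATP synthase 1 was higher (Sdhd, by 0.37 ± 0.077) and 0 lower, of 26 proteasome genes 1 was higher and 2 were lower, and of 20 iron and heme genes 1 was higher, Id1, an inhibitor of helix-loop-helix factors that BMP signals induce (3.59-fold). The shares called were 2.94%, 11.5% and 5% against 25.4% of all genes, and whether these lists differ from other genes was not tested. Cytosolic ribosomal proteins were higher in 9 of 31 cases and lower in 0, with a median difference of 0.14. The share called, 29%, is near the 25.4% of all genes. Of the 14 measured plasma proteins that hepatocytes secrete, 2 were higher and 1 was lower, and the markers of pericentral hepatocytes gave 2 higher and 2 lower of 9, those of periportal hepatocytes 3 and 2 of 9. The shares called in these 3 lists were 21.4%, 44.4% and 55.6%, against 25.4% of all genes. Of the pericentral genes Cyp1a2, a cytochrome P450, was lower by 1.31.

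**Figure D5:**
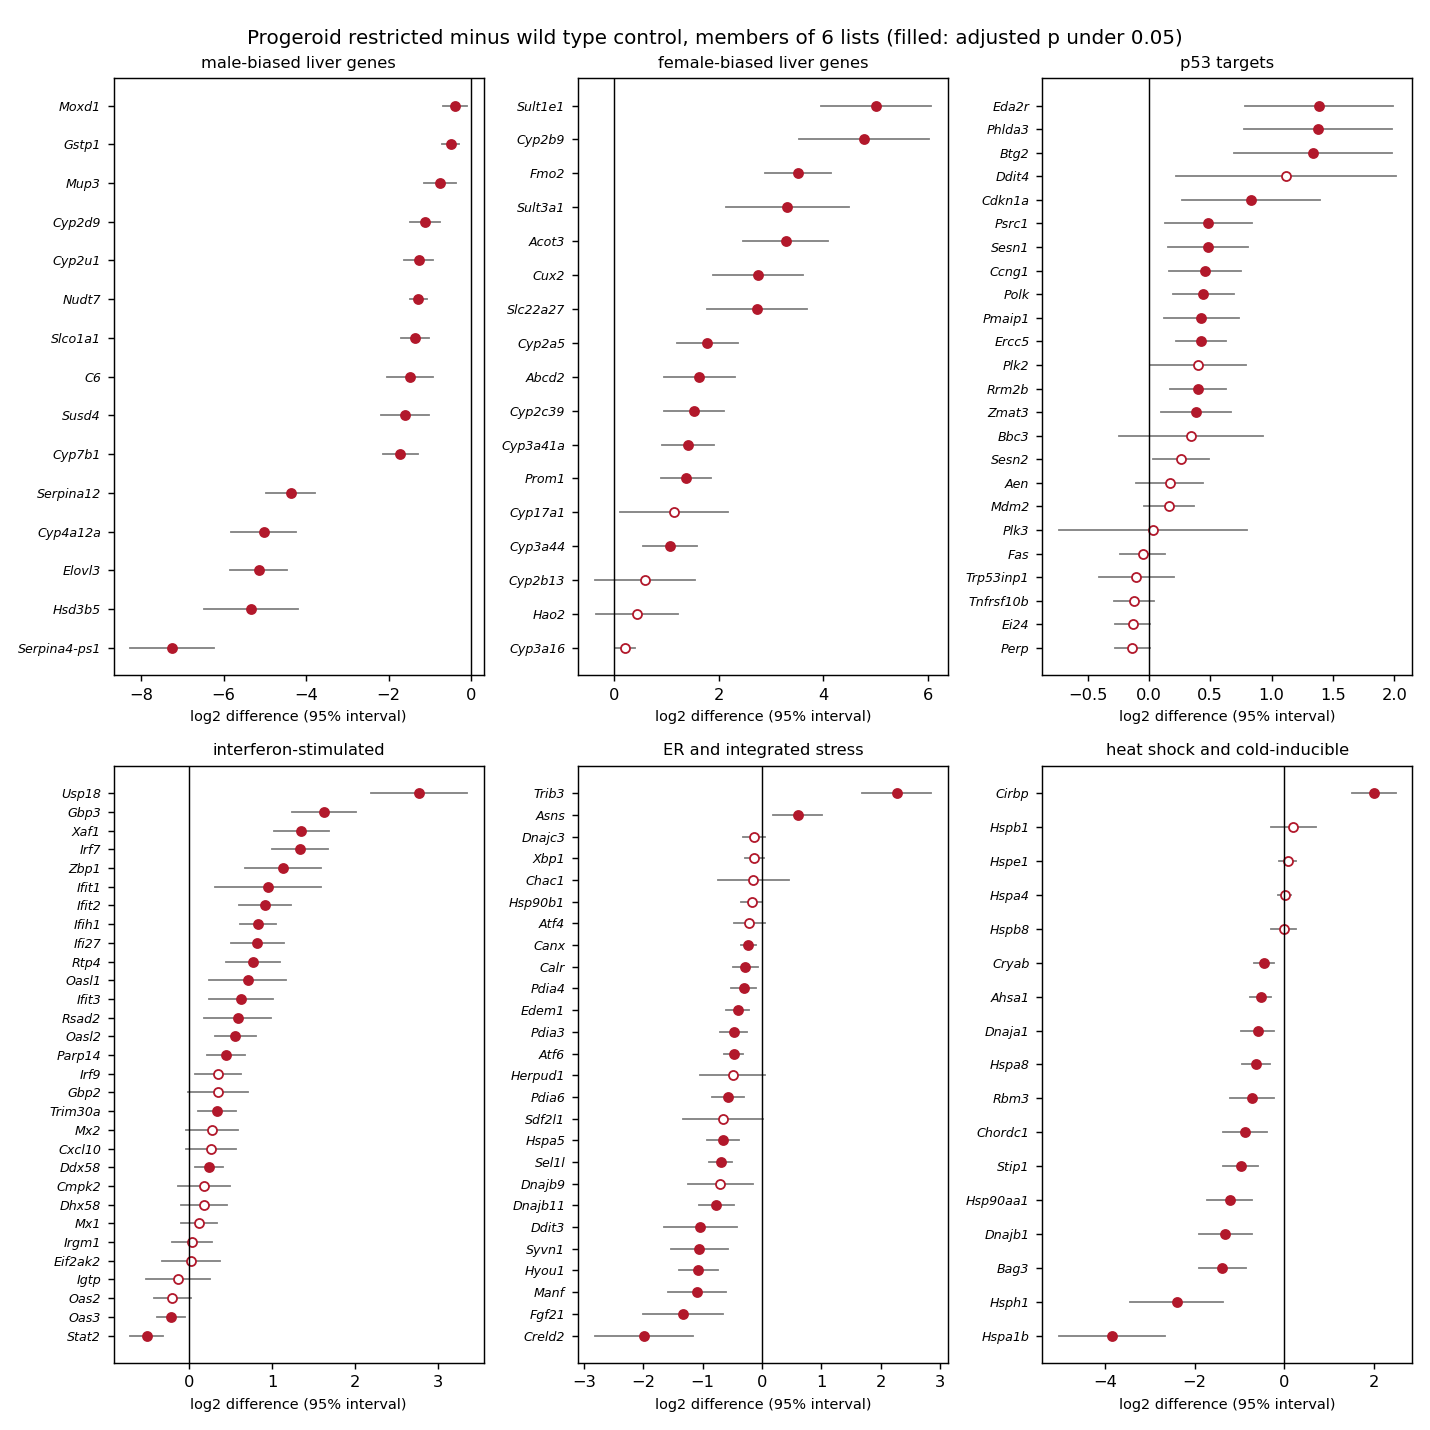
Log2 difference between restricted progeroid and control wild type livers (x axis) with its 95% interval for the measured members of 6 gene lists, filled where the gene was called. The male-biased genes all lie left of 0, and the female-biased genes, the p53 targets and the interferon-stimulated genes lie mostly right of it.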

How the data were processed

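Liver RNA of 20 mice was measured on Affymetrix mouse arrays, 1 array per mouse. The deposited values are on a log2 scale and were made by the authors with RMA (background correction, quantile normalization and summarization of probes), per the submitters' processing notes, whose version is not given in the sources used here; they lie between 2.19 and 14.51 and were used as deposited. Of 45141 probe sets (104 of them controls), 28898 had 1 gene symbol in the platform annotation, 551 had several and 15588 had none. A gene was represented by its brightest probe set on average over all 20 arrays, which gave 17097 genes, 7180 of them with several probe sets. Intensity sets the precision of an array value, and the number of arrays limits it.

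Groups follow the source names. All 20 arrays entered a linear model of 4 group means in limma 3.58.1 (R 4.3.3), with moderated variances and Benjamini-Hochberg adjustment over all genes, and the adjusted p-values in the text are from it unless a permutation test is named. Errors beside a difference are standard errors of the fit, and those beside a level are SD over 5 animals. Data with 17097 genes were simulated with independent normal noise, and 50 genes per fold were changed in the restricted progeroid group alone. The fit recovered 40, 90, 100 and 98% of genes changed by 1.25, 1.5, 2 and 4-fold, with 12 false calls among unchanged genes. Far fewer genes were changed there than were called in the data, so recovery in the data may differ. Distances were compared with exact permutation tests over animals. Promoters are those of the RefSeq table for GRCm38.p6.

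The comparison, its gene lists and its classes were chosen with earlier results of these data known. Genes with values were to be the 12 largest rises and falls without overlap, the 4 members of each list with the smallest adjusted p, the 8 largest per class and direction, Ercc1 and the cell markers. Not every gene that this rule picks is reported here. Other named genes, such as Cdkn1a, Mdm2, Hspa5, Creld2, Bcl6, Socs2, Arntl, Fasn, Myc, Igf1, Saa1, Hmox1 and Mki67, were chosen after their values were seen. Alternatives were centring each array on its median, averaging the probe sets of a gene, leaving out probe sets with the suffix x, s or a, using only the arrays of the groups compared, leaving out dim genes, limma-trend, array weights, and leaving out each animal.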

Additional observations from a re-analysis of the deposited data

Results flagged for a closer look

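In groups of 5 animals, 4 values lay far from the other 4 of their group, out of 92 groups examined (44 genes with values for each animal, in 2 groups, and the distances in the 4 groups). Chance alone marks about 1 in 20. Animal 368 of the restricted progeroid group had 8.69 for Afp, where the next animal had 7.68, and 9.43 for Slc22a7, where the next had 8.56. Animal 362 of that group had 6.19 for Ifit1, where the next had 7.26. Control wild type animal 402 had 7.16 for Cyp2b9, where the next had 4.61. The calls of Afp, Slc22a7 and Cyp2b9 held without these animals.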

How the results depend on the processing

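The count of higher genes (2369) lay between 1939 and 2638 and that of lower genes (1973) between 1367 and 2305 under the alternatives that keep 1 value per gene, and 2358 of the higher and 1913 of the lower genes kept their call after centring each array. Counted over every probe set with 1 symbol, 3412 were higher and 3080 lower, and with a change of at least 1.5-fold 835 genes were higher and 405 lower. Leaving out 1 animal gave 2054 to 2435 higher genes and 1557 to 2045 lower genes. It gave 1041 to 1312 genes still altered and 873 to 1183 newly altered. Genes back near normal numbered 114 without control progeroid animal 323 and at most 205, and genes in the opposite direction 9 without control progeroid animal 323 or control wild type animal 402 and 23 without control progeroid animal 327. With array weights 27 genes were in the opposite direction. The distance of restricted minus control progeroid animals, 0.0823, lay between 0.0736 and 0.0886 without 1 animal, and the distance of restricted progeroid minus restricted wild type animals, -0.00709, between -0.0157 and -0.000361.

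A change of sign was counted only where the gene was called in the main fit or in the alternative. Of 142 genes with a value in the text, Ercc1 alone changed sign in that sense. Without probe sets of the suffix x, s or a, a probe set at 4.83 stood for it, with a difference of 0.013. Calls were lost for Cdkn1a (averaged probe sets), Igf1 (without probe sets of those suffixes) and Alb (only the arrays compared), and, without 1 animal, for Alb, Cdkn1a, Ercc4 and Ifit1. Arntl was called with array weights alone. All other genes with values were called or not called as in the main fit under the alternatives run for them. Those that were called kept their direction, while uncalled genes with differences near 0 may have changed sign. Signals near the lower end of the scale limit the folds of Afp, Bex1, Ccne2, Cux2, Cyp2b9, Eda2r, Phlda3, S100a8, Serpina4-ps1, Slc16a5, Spink1, Sult1e1 and Sult3a1. They also limit the differences of Amy2a5, Mki67 and Thrb. No paired analysis was possible because the groups share no animal numbers.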

Other observations

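Further enzymes of drug and steroid metabolism differed. Of 19 genes in the list of cytochromes P450 of families 2b, 2c and 3a, which also holds the xenobiotic receptors Nr1i2 and Nr1i3, 9 were higher and 2 lower in restricted progeroid than in control wild type livers. Of 8 sulfotransferases 4 were higher and 1 was lower: Sult1a1, a phenol sulfotransferase near the top of the scale, was higher by 0.57 ± 0.06 (adjusted p = 8.19e-07) and Sult1d1 by 0.96 ± 0.13. Of 13 acyl-CoA thioesterases 3 were higher and 2 lower, Acot9 2.42-fold higher (1.28 ± 0.11) and Them7 lower by 0.90 on the log2 scale. In defence against peroxide, superoxide and metals 6 of 16 were higher and 1 lower, the methionine sulfoxide reductase Msra by 0.77. Of 6 erythroid markers 1 was higher and 2 were lower. The share called was 57.9% in the cytochrome P450 list, 62.5% in sulfotransferases and 38.5% in thioesterases. It was 43.8% in the defence genes and 50% in erythroid markers, where 25.4% of all genes were called.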
